A study of Mus musculus with 24 samples.

Results

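Interferon-stimulated antiviral genes were followed across the RNA of BV2 cells and of the vesicles they release. They were chosen by name from a list of 41 such genes, and 40 of the 41 stood among the 13290 genes listed in each of the count tables; the other 1 is not analysed here. BV2 is an immortalised mouse microglial cell line, and extracellular vesicles (EVs) are membrane particles that cells shed into the medium. The groups were LPS cells (lipopolysaccharide, the outer membrane glycolipid of Gram-negative bacteria and ligand of TLR4, 100 ng/mL), IL10 cells (interleukin-10, 50 ng/mL), TGFB cells (transforming growth factor-β, 50 ng/mL) and untreated Control cells, and LPS EVs, IL10 EVs, TGFB EVs and Control EVs from cultures handled the same way. Treatment lasted 72 h, each of the 8 groups had 3 libraries, and all came from this 1 line, whose responses need not be those of microglia in tissue.

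Type I interferons signal through the receptor chains IFNAR1 and IFNAR2 and the kinases JAK1 and TYK2 to a complex with STAT2 and IRF9, which binds the interferon-stimulated response element (ISRE) in promoters. Many genes carry such elements, and their products sense viral RNA, degrade it, block its translation, or hold virions at the membrane. In macrophages and microglia, LPS sets this programme off through the adaptor TRIF, the kinases TBK1 and IKKε and the factors IRF3 and IRF7, with interferon-β as the link.

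Promoters of some members are shown because they hold that element. The ISRE core was searched as GAAANNGAAA on either strand in RefSeq windows (build GRCm38.p6) from 250 bases before to 50 bases after each annotated start; overlapping matches were counted singly. Windows were given for 30 of the 40 members, which is under 80%, so a check over all members is void and the share stands for those 30. The core was found in 11 of 30 members (36.7%), against 3.82% of the 9801 listed genes with a window. The 11 were Ddx58, Eif2ak2, Oas3, Isg15, Trim21, Trim30a, Slfn5, Slfn9, Rsad2, Bst2 and Lgals9. The GAS core TTCNNNGAA, an element of interferon-γ target genes, was in 5 of 30 (16.7%), against 8.27% of listed genes. A match is a description of letters and not a site. In the OAS family, the windows of Oasl1 and Oasl2 held no core, and Oas2 had no window. The stretches below hold the core in capitals, read 5′ to 3′ on the strand of the gene. They are of Rsad2, with the largest fold rise in LPS cells, Isg15, with 3 overlapping cores, and Oas3 of the OAS family. The neighbours Slfn5 and Slfn9, which differed under TGF-β, are also shown. All but Rsad2 were chosen after their values were seen. On the strand shown, the core of Rsad2 and Slfn9 appears as its reverse complement. They lie at chr12:26456548-26456587 (minus strand, Rsad2), chr4:156200860-156200911 (minus, Isg15), chr5:120777710-120777749 (minus, Oas3), chr11:82951932-82951971 (plus, Slfn5) and chr11:82991851-82991890 (minus, Slfn9), each upstream of the annotated start.
Rsad2: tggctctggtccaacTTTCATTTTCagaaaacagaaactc
Isg15: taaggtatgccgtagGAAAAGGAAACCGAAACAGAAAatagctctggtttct
Oas3: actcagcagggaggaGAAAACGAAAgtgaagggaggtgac
Slfn5: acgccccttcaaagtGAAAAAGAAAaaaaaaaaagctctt
Slfn9: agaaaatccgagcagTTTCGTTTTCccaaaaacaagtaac

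Sequencing gave 26.14 to 42.13 M counts per library in cells, against 3.02 to 17.98 M in EVs. Members at 0 numbered 0 to 2 in a cell library, and in EVs 0 to 1 with LPS, 10 to 18 with IL-10, 7 to 30 with TGF-β and 8 to 14 in controls. The same split held over all listed genes, of which 0.49% to 4.42% were at 0 in LPS EVs against 28.98% to 33.45% in Control EVs. Levels below are CPM, counts scaled to the size of the library and by TMM over the 12 libraries of a compartment. Log2 fold changes and adjusted p-values are from edgeR's quasi-likelihood test over all genes tested, and a gene was called at an adjusted p under 0.05. Of 13 macrophage and microglia markers 12 were listed (P2ry12 was not analysed here), and together they held 7120 to 9640 CPM in cells and 2070 to 7720 CPM in EVs. The labels do not say whether the 3 libraries of a group came from different cultures; p-values therefore speak only of library-to-library spread, part or all of which may be technical.

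LPS raised nearly every member in cells. Of the 39 members tested, 38 were higher in LPS cells than in Control cells and 0 were lower, where 28.6% of all genes tested were called higher and 27.5% lower. The median log2 fold change of the members was 1.37, against 0.01 over all genes tested. Of the calls, 31 were rises of more than 2-fold. The share of all genes called at that size was not counted and is at most the 28.6% called higher. For 38 members every LPS library lay above every control library, as held for 31.3% of all genes tested. All 38 calls held under every alternative in which the gene was tested; with a mean count of at least 50, there were 37 such calls. Summed over the 40 members, LPS cells held 4397.9 ± 235.0 CPM of their library totals, against 1775.6 ± 60.5 CPM in Control cells (SD, n = 3 each). In these bulk libraries, more responding cells and more RNA per cell cannot be told apart.

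**Figure D1:**
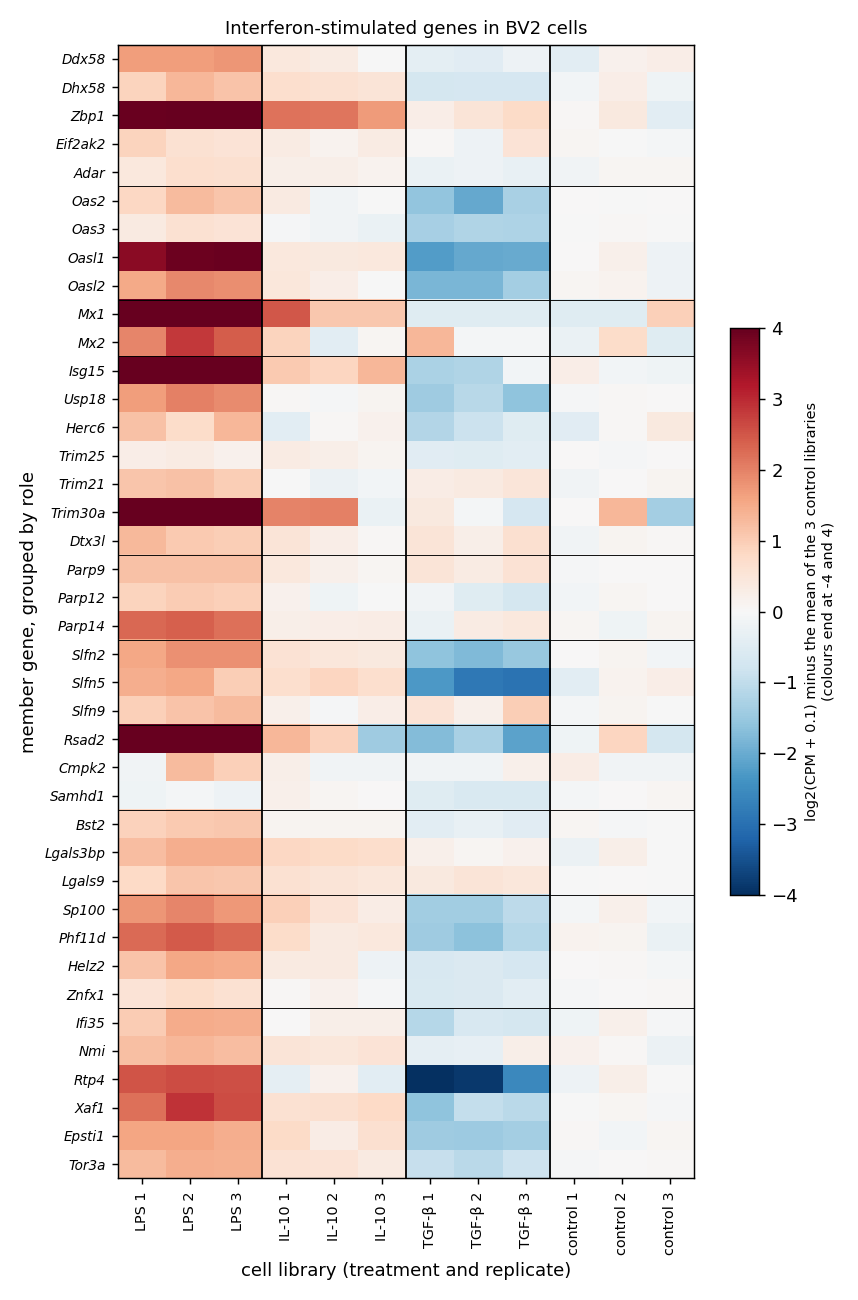
Level of the 40 members in each of the 12 cell libraries, as log2(CPM + 0.1) minus the mean of the 3 control libraries, with members down the page by role and LPS, IL-10, TGF-β and control libraries from left to right. LPS libraries are above control for 38 members, while TGF-β libraries are below control for the 4 OAS family members, Slfn2, Slfn5 and Rtp4.

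Rsad2, which encodes viperin, an enzyme that makes a chain-terminating nucleotide, showed the largest fold change. It had 17.5, 21.5 and 22.9 CPM in LPS cells, against 0.292, 0.703 and 0.167 CPM in Control cells, a 51.2-fold rise (log2 fold change 5.68 with an SE of 0.28, edgeR adjusted p = 1.55e-11). The groups were far apart in every library, and without control replicate 2, the highest control, the log2 fold change was 6.48. Its neighbour Cmpk2, a mitochondrial nucleotide kinase with its start close by on the opposite strand of chromosome 12, had 0, 5 and 4 counts in LPS cells, against 1, 0 and 0 counts in Control cells, and was too low to be tested. Samhd1, which depletes deoxynucleotides, had 102, 108 and 99.9 CPM in LPS cells, against 109, 114 and 119 CPM in Control cells. Its libraries did not overlap, the change missed the threshold (log2 fold change -0.15, SE 0.07, edgeR adjusted p = 0.0703), and it was the 1 tested member that did not rise.

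Of the sensors, all 5 rose. Zbp1, a sensor of Z-form nucleic acids that can start necroptosis, had 48.1, 67.2 and 63.3 CPM in LPS cells, against 3.14, 4.0 and 2.24 CPM in Control cells (18.9-fold, edgeR adjusted p = 6.22e-11). Its lowest LPS library stood above its highest control library by a wide margin. The RNA helicases Ddx58, which is RIG-I, and Dhx58, which is LGP2 and tunes RIG-I-like signalling, rose 3.22-fold and 2.16-fold. Eif2ak2, the kinase PKR that blocks translation on double-stranded RNA, rose 1.62-fold, and Adar, which edits adenosine in double-stranded RNA, 1.49-fold. The fold changes of the last pair were small, yet their libraries did not overlap between the groups.

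The 4 OAS family members, enzymes or relatives of enzymes that make the RNase L activator 2-5A, all rose but by unlike amounts. Oasl1, known in mouse as an inhibitor of Irf7 translation, had 429, 536 and 549 CPM in LPS cells, against 35.4, 40.4 and 30.4 CPM in Control cells (14.2-fold, edgeR adjusted p = 6.2e-12). It became the member with the most counts in LPS cells, with 12.2% of all member counts there. Oasl2, which lies next to it, rose 3.4-fold, Oas2 2.11-fold and Oas3 1.42-fold. Oas3 was already high, at 188, 199 and 188 CPM in Control cells. Both Mx genes, of a GTPase family with members that trap viral nucleocapsids, were scarce. Whether this line makes a working protein from them was not tested. Mx1 had 2.24, 2.67 and 3.02 CPM in LPS cells, against 0, 0 and 0.167 CPM in Control cells; its 44.6-fold rise (log2 fold change 5.48, SE 0.64, edgeR adjusted p = 6.74e-07) rests on 5 control counts, all in replicate 3, and the log2 fold change was 9.49 without that library and 4.87 without control replicate 2. Mx2 had 1.9, 3.57 and 2.64 CPM in LPS cells, against 0.329, 0.764 and 0.267 CPM in Control cells, and rose 5.78-fold (log2 fold change 2.53, or 3.16 without control replicate 2).

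All 7 members of the ISG15 and ubiquitin-ligase group rose. Isg15, a ubiquitin-like protein attached to newly made proteins and also secreted, had 52.7, 76.0 and 67.5 CPM in LPS cells, against 3.84, 2.93 and 2.77 CPM in Control cells (20.6-fold, edgeR adjusted p = 1.7e-13). Trim30a, a mouse TRIM protein that restrains NF-κB signalling, had 9.81, 8.35 and 8.75 CPM in LPS cells, against 0.329, 0.978 and 0.0668 CPM in Control cells (18.9-fold). The control libraries of Trim30a spread widely, and its log2 fold change was 4.24 with them all and 5.52 without control replicate 2. Usp18, which removes ISG15 and also blocks the receptor IFNAR2, rose 3.65-fold, the ISG15 ligase Herc6 2.12-fold, the antibody receptor Trim21 2.15-fold and Dtx3l, the ligase that pairs with PARP9, 2.17-fold. Trim25, the ligase that activates RIG-I, had the smallest rise, 1.19-fold, with 254, 265 and 242 CPM in LPS cells, against 216, 207 and 216 CPM in Control cells.

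Among the remaining members in LPS cells, the ADP-ribosyltransferases rose 4.93-fold (Parp14), 2.24-fold (Parp9) and 1.92-fold (Parp12). Dtx3l and Parp9 overlap on opposite strands, and since the strand setting of the counting is not given in the sources used here, reads of their overlap cannot be assigned. The Schlafen genes, growth regulators of which some cleave or restrict RNA, rose 3.33-fold (Slfn2), 2.57-fold (Slfn5) and 2.17-fold (Slfn9). Bst2, or tetherin, which holds budding virions on the cell, rose 2.02-fold and, per kilobase of exon, was the most abundant member in LPS cells, at 334 CPM per kb. Lgals3bp and Lgals9, secreted glycan-binding or glycan-bound proteins, rose 2.58-fold and 1.99-fold. Of the nuclear proteins and helicases, Phf11d rose 5.02-fold, the nuclear body protein Sp100 3.53-fold, Helz2 2.63-fold and Znfx1, a sensor on mitochondria, 1.55-fold.

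Rtp4 and Xaf1 led the last group. Rtp4, a chaperone of taste and opioid receptors that also binds viral RNA, had 34.3, 36.2 and 35.2 CPM in LPS cells, against 5.08, 6.9 and 5.75 CPM in Control cells (5.93-fold, edgeR adjusted p = 3.46e-12). Xaf1, which counters the apoptosis inhibitor XIAP, had 35.5, 56.2 and 47.0 CPM in LPS cells, against 7.53, 7.94 and 7.25 CPM in Control cells (6.08-fold, edgeR adjusted p = 5.48e-11). No library of these genes crossed between the groups. Epsti1, Tor3a, Ifi35 and Nmi, the last a partner of Ifi35 in a complex that can be released from the cell, rose 2.92-fold, 2.62-fold, 2.5-fold and 2.38-fold.

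**Figure D2:**
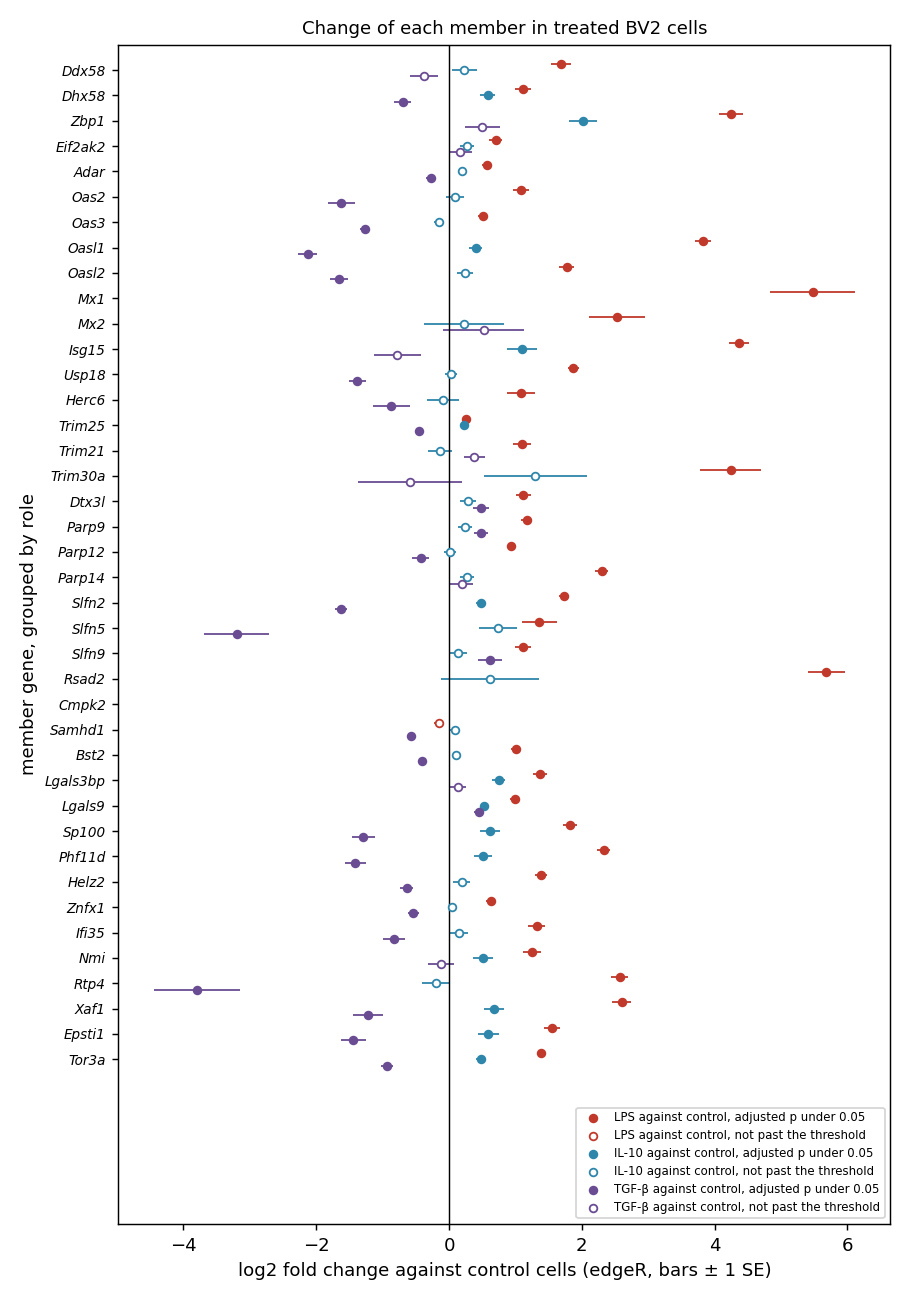
Log2 fold change against control cells of each member in LPS, IL-10 and TGF-β cells, with bars of 1 SE; filled points passed an adjusted p of 0.05 and open points did not. LPS points lie right of 0 for 38 of 39 members tested, the filled IL-10 points are above a 2-fold rise for Zbp1 and Isg15 alone, and TGF-β points reach -3.8 for Rtp4 and -3.2 for Slfn5.

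IL-10 raised fewer members, and by less. Of 38 members tested, 14 were higher in IL10 cells than in Control cells and 0 were lower, where 12.3% of all genes tested were called higher and 10.9% lower. The median log2 fold change of the members was 0.25, against 0 over all genes tested. Of the calls, 2 were rises of more than 2-fold, those of Zbp1 and Isg15. The share of all genes called at that size was not counted and is at most the 12.3% called higher. Summed over the members, IL10 cells held 1888.8 ± 136.3 CPM of library totals, against 1775.6 ± 60.5 CPM in Control cells.

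Zbp1 had 14.1, 13.9 and 10.2 CPM in IL10 cells, against 3.14, 4.0 and 2.24 CPM in Control cells (4.05-fold, log2 fold change 2.02, SE 0.21, edgeR adjusted p = 1.16e-06). Isg15 had 6.54, 5.83 and 8.02 CPM in IL10 cells, against 3.84, 2.93 and 2.77 CPM in Control cells (2.14-fold, edgeR adjusted p = 0.00108). In both, every IL-10 library was above every control library. The secreted Lgals3bp had 69.5, 66.2 and 64.0 CPM in IL10 cells, against 33.1, 46.1 and 39.0 CPM in Control cells (1.69-fold). Lgals9, a galectin, had 220, 203 and 198 CPM in IL10 cells, against 141, 146 and 143 CPM in Control cells (1.45-fold). Xaf1 had 11.6, 11.8 and 13.1 CPM in IL10 cells, against 7.53, 7.94 and 7.25 CPM in Control cells (1.6-fold). These 3 genes did not overlap between the groups either.

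Further rises with IL-10 were those of Dhx58 (42.4, 40.3 and 38.1 CPM in IL10 cells, against 24.9, 32.0 and 23.6 CPM in Control cells, 1.5-fold), Epsti1 (14.5, 10.4 and 13.4 CPM in IL10 cells, against 8.74, 7.88 and 8.92 CPM in Control cells, 1.5-fold) and Sp100 (24.7, 18.7 and 15.7 CPM in IL10 cells, against 12.2, 14.7 and 11.8 CPM in Control cells, 1.53-fold). None of them overlapped between the groups. The other 6 calls were Phf11d, Nmi, Tor3a, Slfn2, Oasl1 and Trim25, which rose 1.17-fold to 1.42-fold. Of the 14 calls, 9 held under every alternative, and Sp100, Trim25, Nmi, Oasl1 and Phf11d were lost when 1 control library was left out, with edgeR adjusted p-values of 0.0506 to 0.105. Among members that did not pass, Usp18 had a log2 fold change of 0.03, Parp12 0.01 and Rtp4 -0.2. Neither the PARP group (0 of 3) nor the tested Mx gene was called. Adar and Eif2ak2 also missed the threshold (edgeR adjusted p = 0.052 and 0.0537). Their libraries did not overlap, and both were called higher under some alternatives, such as DESeq2 (DESeq2 adjusted p = 0.0443 and 0.0368).

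TGF-β lowered most members. Of 37 members tested, 23 were lower in TGFB cells than in Control cells and 4 were higher, where 15.4% of all genes tested were called lower and 14.5% higher. The median log2 fold change of the members was -0.59, against 0.01 over all genes tested, and 12 of the members called lower fell by more than 2-fold. The share of all genes called at that size was not counted and is at most the 15.4% called lower. Summed over the members, TGFB cells held 1276.8 ± 64.4 CPM of library totals, against 1775.6 ± 60.5 CPM in Control cells.

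Rtp4 had the largest fold change, with 0.0306, 0.307 and 0.888 CPM in TGFB cells, against 5.08, 6.9 and 5.75 CPM in Control cells (13.9-fold lower, log2 fold change -3.8 with an SE of 0.65, edgeR adjusted p = 0.00327). The TGFB libraries spread widely, at 1, 8 and 32 counts, and the log2 fold change without replicate 3 was -5.21. Slfn5 had 0.276, 0.153 and 0.139 CPM in TGFB cells, against 1.28, 1.92 and 2.11 CPM in Control cells (9.17-fold lower, edgeR adjusted p = 0.000238). In both genes the groups did not overlap. Slfn2, whose product keeps T cells and monocytes quiescent in mice, had 31.9, 28.5 and 33.8 CPM in TGFB cells, against 97.4, 104 and 90.3 CPM in Control cells (3.09-fold lower, edgeR adjusted p = 3.5e-08).

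The whole OAS group fell with TGF-β. Oasl1 had 7.35, 8.35 and 8.57 CPM in TGFB cells, against 35.4, 40.4 and 30.4 CPM in Control cells (4.37-fold lower, edgeR adjusted p = 9.49e-08). Oasl2 had 14.1, 13.9 and 19.3 CPM in TGFB cells, against 52.3, 55.0 and 43.2 CPM in Control cells (3.17-fold lower). Oas2 had 4.5, 3.22 and 5.55 CPM in TGFB cells, against 13.9, 13.4 and 13.7 CPM in Control cells (3.07-fold lower), and Oas3 was 2.4-fold lower. Reads shared between such related genes could be split between them, and how the authors counted them is not given.

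Phf11d had 8.51, 7.32 and 10.3 CPM in TGFB cells, against 25.3, 25.0 and 19.1 CPM in Control cells (2.65-fold lower), and Epsti1 had 3.09, 3.07 and 3.22 CPM in TGFB cells, against 8.74, 7.88 and 8.92 CPM in Control cells (2.72-fold lower). All 4 nuclear proteins and helicases and 5 of the 6 scaffold and other members fell, the exception being Nmi with a log2 fold change of -0.12. Usp18 fell 2.59-fold, Sp100 2.44-fold, Xaf1 2.33-fold and Tor3a 1.92-fold. Samhd1 fell 1.49-fold (edgeR adjusted p = 5.37e-05), without overlap between the groups. Of the sensors, Dhx58 and Adar fell, 1.62-fold and 1.2-fold, while Ddx58, Eif2ak2 and Zbp1 had log2 fold changes of -0.38, 0.17 and 0.5 and did not pass. Isg15 had 1.26, 1.3 and 2.94 CPM in TGFB cells, against 3.84, 2.93 and 2.77 CPM in Control cells; its log2 fold change of -0.78 did not pass (edgeR adjusted p = 0.113), and without TGFB replicate 3 it was -1.31 (edgeR adjusted p = 0.00755).

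The 4 members that rose with TGF-β did so by less than 2-fold. Slfn9 had 18.9, 15.1 and 25.6 CPM in TGFB cells, against 12.2, 14.1 and 12.7 CPM in Control cells (1.53-fold, edgeR adjusted p = 0.0186). Parp9 had 45.0, 39.9 and 47.6 CPM in TGFB cells, against 30.9, 32.2 and 31.9 CPM in Control cells (1.39-fold), and its overlapping partner Dtx3l had 39.4, 32.3 and 42.8 CPM in TGFB cells, against 24.6, 29.2 and 28.3 CPM in Control cells (1.39-fold). Lgals9 had 186, 203 and 198 CPM in TGFB cells, against 141, 146 and 143 CPM in Control cells (1.37-fold, edgeR adjusted p = 0.000168). No library of these genes crossed between the groups. Slfn9 lost its call without TGFB replicate 3 or without control replicate 1 or 3, and Dtx3l without control replicate 1. Adar, Herc6 and Parp12 each lost their call of a fall without 1 of several libraries, at edgeR adjusted p-values of 0.0556 to 0.158. The promoters shown for Slfn5 and Slfn9 both hold the ISRE core; of the 11 members with the core, Oas3, Slfn5 and Bst2 fell, Slfn9 and Lgals9 rose, and the others did not pass or were too low to test.

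**Figure D3:**
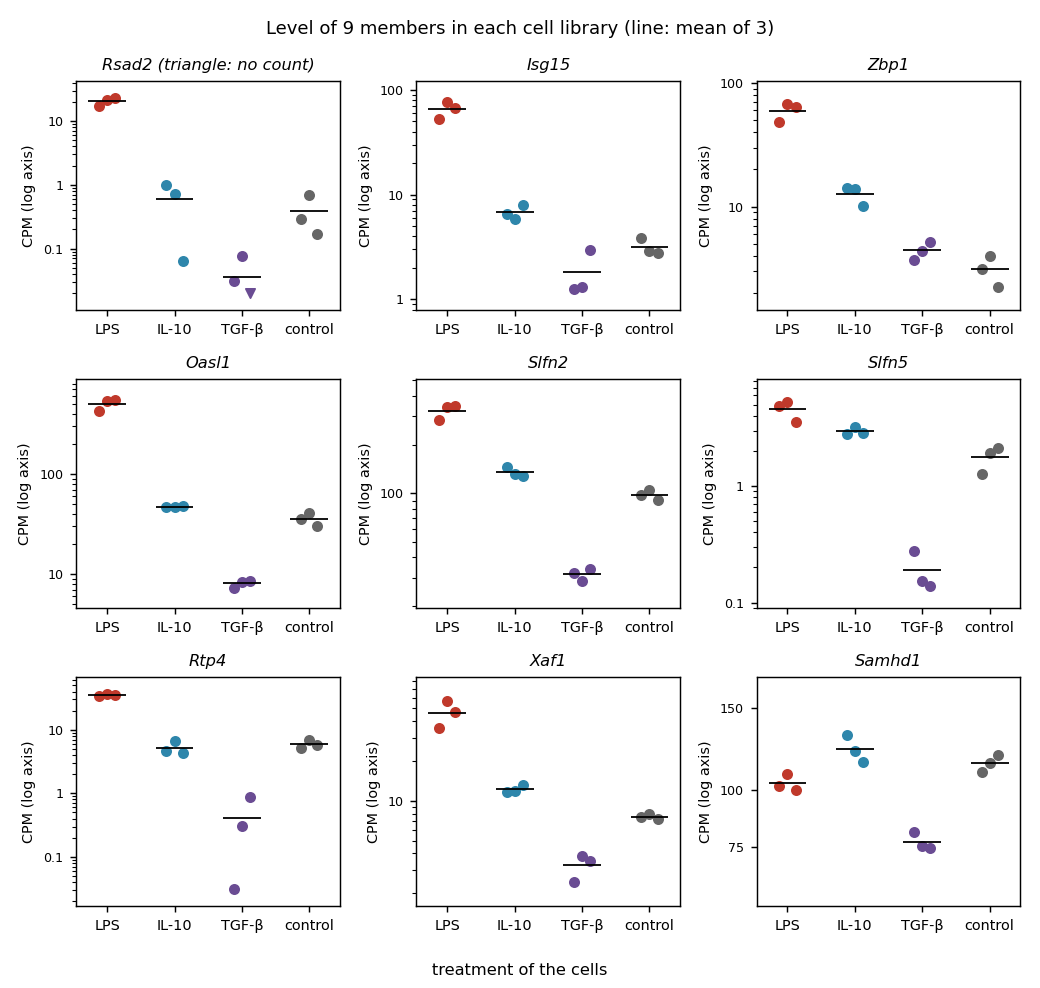
CPM of 9 members in every cell library on a log axis, with LPS, IL-10, TGF-β and control cells from left to right, a line at the mean of 3 libraries and a triangle for a library without a count. Rtp4 runs from 0.0306 to 0.888 CPM in TGF-β cells and from 34.3 to 36.2 CPM in LPS cells. Samhd1 lies between 74.6 and 131 CPM in all libraries, with every TGF-β library below every control library.

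The treatments were then set against each other in a fit of all 12 cell libraries. LPS cells exceeded IL10 cells in 36 of 39 members tested, with 1 member lower, where 27% of all genes tested were called higher and 26.3% lower. The member that was lower was Samhd1, with 102, 108 and 99.9 CPM in LPS cells, against 131, 121 and 115 CPM in IL10 cells (log2 fold change -0.24, edgeR adjusted p = 0.00815; 0.0505 without IL10 replicate 1). The members not called were Trim25 and Slfn5, with log2 fold changes of 0.03 and 0.62. LPS cells exceeded TGFB cells in 39 of 39 members tested, where 29.3% of all genes tested were called higher, and the median log2 fold change was 2.07. Mx1 had no count in any TGFB library and was at least 27.4-fold higher in LPS cells (floor of 3 counts per library). Rsad2 had 2242 counts over the LPS cell libraries, against 3 counts over the TGFB cell libraries. Rtp4 differed by a log2 fold change of 6.35, Oasl1 by 5.96 and Isg15 by 5.12. The calls of Eif2ak2 against IL10 cells (edgeR adjusted p = 0.118 without LPS replicate 1 and 0.0962 without IL10 replicate 2) and of Slfn9 against TGFB cells (0.0563 without TGFB replicate 2) rested on single libraries.

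IL10 cells exceeded TGFB cells in 30 of 39 members tested and were lower in 2, where 20% of all genes tested were called higher and 18.3% lower, with a median log2 fold change of 0.99. Slfn5 (log2 fold change 3.94), Rtp4 (3.58) and Oasl1 (2.53) stood well apart between these cytokines. Oasl1 had 46.8, 46.4 and 47.4 CPM in IL10 cells, against 7.35, 8.35 and 8.57 CPM in TGFB cells. Trim21 and Slfn9 were lower in IL10 cells, by log2 fold changes of -0.51 and -0.48, and the call of Slfn9 was lost with the 6 libraries of the pair alone (edgeR adjusted p = 0.0532). Without 1 library, the calls of Slfn9, Herc6 and Rsad2 were lost at edgeR adjusted p-values of 0.0579 to 0.193. Lgals9 and Parp14 both had a log2 fold change of 0.08 and did not pass.

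Per kilobase of exon, the median level of the members was 12.95 CPM per kb in LPS cells, 6.635 in IL10 cells, 2.79 in TGFB cells and 4.495 in Control cells. Over all listed genes with an exon length the median was 3.98, 3.92, 3.96 and 3.91 CPM per kb in the same groups. Bst2 was the most abundant member per kilobase in LPS, IL10 and Control cells. Isg15 had rank 5 of the members in LPS cells, at 86.5 ± 15.6 CPM per kb, and rank 21 in Control cells, at 4.21 ± 0.76 CPM per kb. Mx1 and Cmpk2 held the lowest 2 ranks in LPS, IL10, TGFB and Control cells.

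The signalling genes around these members were read from a list of 57, of which 42 were in the tables. None of its 10 interferon genes, Ifnb1 among them, is analysed here, so the ligands themselves have no value. In LPS cells 21 of 42 rose and 10 fell, where 28.6% of all genes tested were called higher and 27.5% lower. Ikbke, the kinase IKKε, had 185, 203 and 196 CPM in LPS cells, against 18.4, 15.9 and 15.6 CPM in Control cells (11.7-fold, edgeR adjusted p = 5.69e-17). Irf7, a master factor of interferon induction, had 179, 234 and 234 CPM in LPS cells, against 73.0, 81.0 and 69.1 CPM in Control cells (2.89-fold, edgeR adjusted p = 7.46e-10). Stat2 rose 1.65-fold, Irf9 1.53-fold and Irf1 2.48-fold. The feedback inhibitors Socs1 and Tnfaip3 rose 37.7-fold and 7.37-fold. The 10 that fell, by 1.19-fold to 4.9-fold, were the receptor chains Ifngr1, Ifnlr1 and Il10rb, the factors Irf2, Irf8, Prdm1 and Irf2bp1, the LPS receptor Tlr4, Tlr7 and the adaptor Ticam1, which is TRIF; Prdm1 was 4.9-fold lower and Ticam1 1.64-fold lower. The receptor chain Ifnar1 had a log2 fold change of -0.02 and was not called.

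In IL10 cells 18 of 41 pathway genes tested rose and 3 fell, where 12.3% of all genes tested were called higher and 10.9% lower. Socs3, the STAT3-induced inhibitor of cytokine receptors, had 227, 252 and 232 CPM in IL10 cells, against 20.6, 26.4 and 25.9 CPM in Control cells (9.72-fold, edgeR adjusted p = 1.41e-14). Stat3 rose 1.72-fold, Irf7 1.62-fold, Stat2 1.47-fold, Ifnar1 1.45-fold and Jak1 1.4-fold, while Irf9 had a log2 fold change of 0.19 and did not pass. In TGFB cells 8 of 42 rose and 11 fell, where 14.5% of all genes tested were called higher and 15.4% lower. Irf7 had 8.79, 10.2 and 15.7 CPM in TGFB cells, against 73.0, 81.0 and 69.1 CPM in Control cells (6.41-fold lower, edgeR adjusted p = 2.25e-05). Ticam1 fell 2.11-fold, Irf5 1.6-fold, Irf9 1.6-fold and Stat2 1.26-fold, while Ifnar1, with a log2 fold change of 0.16, did not pass. Socs3 rose 2.08-fold and the phosphatase Ptpn6 1.41-fold in TGFB cells.

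In EVs the members were measured less evenly. Of the 40 members, 39 had a count in all 3 LPS EV libraries, against 17 in all 3 Control EV libraries, 17 in IL10 EVs and 9 in TGFB EVs. The median coefficient of variation of the members was 38.6% in LPS EVs and 91.3% in Control EVs, against 10.5% in LPS cells and 9.77% in Control cells. Summed over the members, LPS EVs held 3576.6 ± 90.1 CPM of library totals, IL10 EVs 2263.4 ± 165.4 CPM, TGFB EVs 1279.7 ± 268.9 CPM and Control EVs 1944.4 ± 330.1 CPM (SD, n = 3 each).

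**Figure D4:**
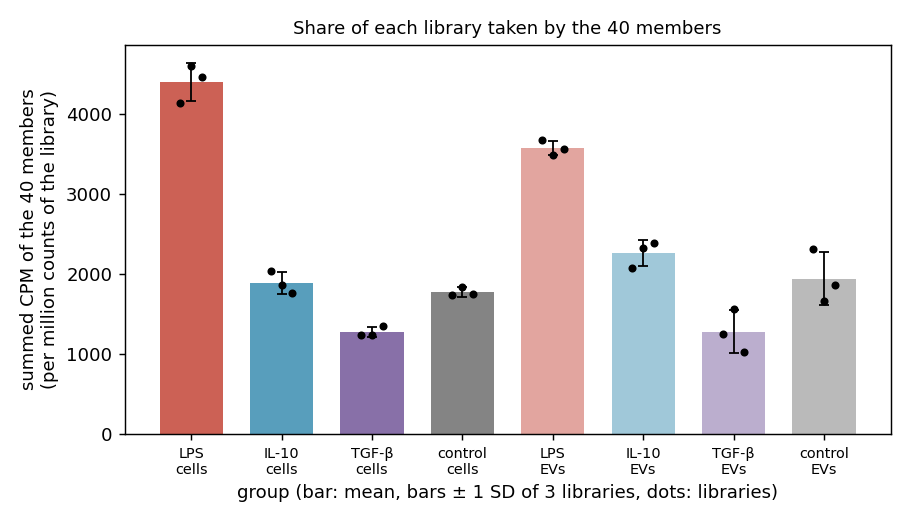
Summed CPM of the 40 members, as a share of all counts of the library, in each group of cells and EVs; bars are means, error bars 1 SD and dots the 3 libraries. LPS cells reach 4397.9 CPM and LPS EVs 3576.6 CPM, and TGF-β groups are the lowest in both compartments.

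Of the 39 members tested between LPS EVs and Control EVs, 6 were higher and 0 lower, where 13.9% of all genes tested were called higher and 0.237% lower. The share of members called is thus near that of all genes. At an unadjusted edgeR p under 0.05 there were 12 of 39 members, beside 2473 of 12216 genes. The median log2 fold change of the members was 1.03, with the 3 genes at 0 in Control EVs set to their bound as well, while the median of all genes was itself shifted by 0.33 (0.4 with RLE scaling). The 6 members were Parp14, Slfn5, Cmpk2, Helz2, Rtp4 and Xaf1. Of the 332 counts of Cmpk2 in all libraries, 320 were in LPS EVs, and since listed genes have at least 240 counts in all, it stood in the tables through that group alone; its call is no evidence of a difference. All 6 calls were lost when any 1 LPS EV library was left out, with a mean count of at least 50, and with all 12 EV libraries in the fit, at edgeR adjusted p-values of 0.0637 to 0.17; that of Slfn5 was also lost without control EV replicate 2 (edgeR adjusted p = 0.0569).

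Rtp4 had 77.2, 30.4 and 57.8 CPM in LPS EVs and no count in Control EVs, at least 146-fold higher (floor of 3 counts per library, edgeR adjusted p = 0.025). Parp14 had 15.8, 69.8 and 17.7 CPM in LPS EVs and no count in Control EVs, at least 91.5-fold higher (edgeR adjusted p = 0.025). Cmpk2 had 19.2, 22.2 and 18.1 CPM in LPS EVs and no count in Control EVs, given as a description. Each LPS EV library held all 3 transcripts, and no Control EV library held any. Xaf1 had 96.9, 69.6 and 102 CPM in LPS EVs, against 0, 0.755 and 0 CPM in Control EVs, and Helz2 had 44.1, 54.3 and 42.9 CPM in LPS EVs, against 0.048, 0.189 and 0.558 CPM in Control EVs (edgeR adjusted p = 0.025 for both). Slfn5 had 11.0, 20.0 and 25.8 CPM in LPS EVs, against 0, 0.189 and 0.279 CPM in Control EVs (edgeR adjusted p = 0.0367). For these 3 the Control EV values rest on 1 to 4 counts a library or none, so no fold is given. Rtp4, Parp14, Xaf1, Helz2 and Slfn5 passed the count filter of this fit through LPS EVs alone. Their adjusted p-values are therefore no evidence of a difference, and their values also stand as a description.

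The LPS EV libraries also held transcripts that the cells lacked. No cell library had a count for 116 of the listed genes, which are therefore listed through EV counts; all 116 had counts in LPS EVs, against 28 in Control EVs. The median of their mean levels was 17.7 CPM in LPS EVs, with a 90th percentile of 26.7 CPM, against 0 and 2.06 CPM in Control EVs. Of the 40 members, 31 had a mean above that median in LPS EVs and 26 above that percentile. Every LPS EV library of Slfn5 and Cmpk2 lay below that percentile, as did replicates 1 and 3 of Parp14. Of the 8 marker lists of cell types outside the line, 5 (neuron, endothelial, fibroblast, astrocyte and B cell) had summed levels in LPS EVs above those of every Control EV library. Each of the 5 lists holds a marker that was near 0 in all other groups. Mean CPM in LPS EVs, against the highest other group, was 33.2 and 0.851 (Rbfox3), 25.1 and 0.414 (Kdr), 24.1 and 0 (Col3a1), 73.8 and 0.57 (Slc1a3) and 27.1 and 0.059 (Ms4a1). With at least 240 counts needed, these markers were listed through LPS EVs, so their higher level there is no evidence of a difference. The 3 listed neuron markers of 7 summed to 20.1 to 146 CPM in LPS EVs, against 0 to 9.13 CPM in Control EVs, and to at most 0.285 CPM in cells. The 2 listed endothelial markers of 5 summed to 13.7 to 72.5 CPM in LPS EVs and were at 0 in Control EVs, and the 1 listed fibroblast marker of 6 held 10.3 to 51.3 CPM in LPS EVs and was at 0 in Control EVs and in all cells. Astrocyte markers (3 listed of 7) summed to 55.1 to 239 CPM in LPS EVs, against 0 to 42.2 CPM in Control EVs, and B cell markers (2 listed of 4) to 14.5 to 46.4 CPM in LPS EVs, against 0 to 8.79 CPM in Control EVs. The markers of these lists did not move together. Slc1a3, Slc1a2 and Ms4a1 were higher on average in LPS EVs. Aldh1l1 (mean 8.92 CPM in LPS EVs, 16.7 in Control EVs) and Cd79b (0.331 and 2.93) were lower. The groups overlapped for the 2 listed T cell markers of 5, at 12.4 to 33.5 CPM in LPS EVs and 0 to 20.2 CPM in Control EVs. They also overlapped for the 2 listed oligodendrocyte markers of 7, at 6.21 to 31.8 CPM in LPS EVs and 0 to 88.0 CPM in Control EVs, and no epithelial marker was listed. The part of these transcripts in the member results was not tested.

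DESeq2 called 6 further members higher in LPS EVs that edgeR did not, namely Isg15, Usp18, Phf11d, Herc6, Slfn2 and Bst2. The share of all genes that DESeq2 called is not given here, so this count is no result about the members. Isg15 had 143, 66.9 and 72.2 CPM in LPS EVs, against 30.4, 6.8 and 9.07 CPM in Control EVs (log2 fold change 2.62, SE 0.8, edgeR adjusted p = 0.0823, DESeq2 adjusted p = 0.00572). Usp18 had 145, 76.8 and 131 CPM in LPS EVs, against 44.6, 16.2 and 35.2 CPM in Control EVs (log2 fold change 1.91, edgeR adjusted p = 0.0802, DESeq2 adjusted p = 0.00502). Phf11d had 180, 125 and 116 CPM in LPS EVs, against 35.8, 26.6 and 3.49 CPM in Control EVs (log2 fold change 2.69, edgeR adjusted p = 0.0905, DESeq2 adjusted p = 0.00883). These 3 genes, chosen after their values were seen, did not overlap between the groups. Over the 39 members tested, 18 were without overlap and higher in LPS EVs and 1 lower, where 26.3% of all genes tested were without overlap and higher and 5.77% lower. Rsad2 had 4.97, 40.1 and 12.0 CPM in LPS EVs, against 12.4, 0 and 0.698 CPM in Control EVs, and the groups overlapped.

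**Figure D5:**
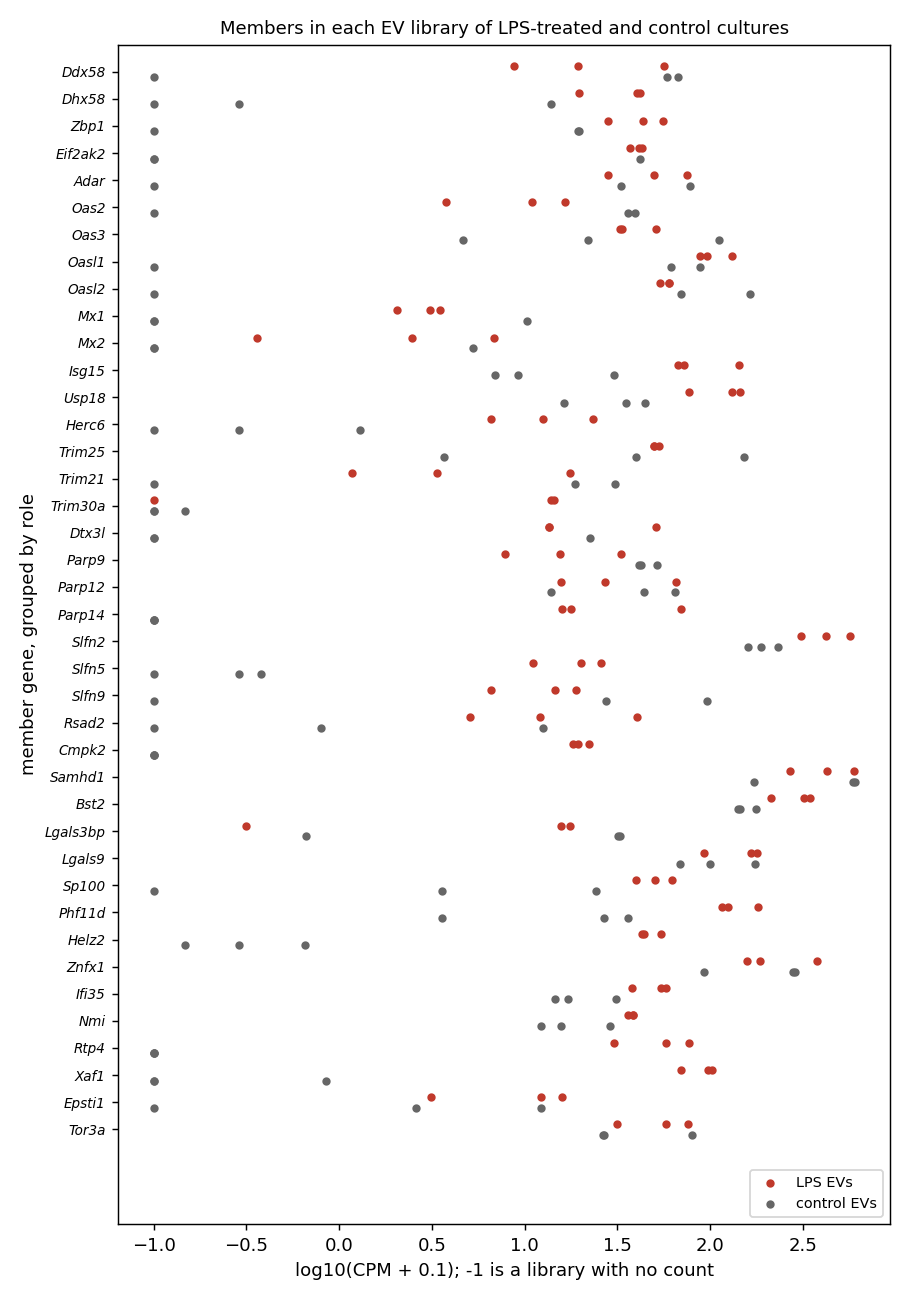
Level of each member in the 3 LPS EV libraries and the 3 control EV libraries, as log10(CPM + 0.1), with members down the page by role; -1 marks a library without a count. Parp14, Cmpk2 and Rtp4 have points in LPS EVs and none above -1 in control EVs, while Samhd1 and Znfx1 overlap.

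No member passed the test for either cytokine in EVs. For IL10 EVs against Control EVs, 26 members were tested with edgeR and 0 passed, where 0% of all genes tested were called. At an unadjusted p under 0.05 there were 0 members, beside 177 of 8992 genes, and DESeq2 called 0 members. For TGFB EVs against Control EVs, 26 were tested and 0 passed, again with 0% of all genes called. At an unadjusted p under 0.05 there were 0 members, beside 360 of 9093 genes, and DESeq2 called 0 members. The median log2 fold change of the members was -0.05 for IL10 EVs and -0.8 for TGFB EVs, against -0.05 and -0.13 over all genes tested. TGFB EV replicate 1 held no count for 30 of the 40 members, and 50.0% of all listed genes were at 0 in it. Of the pathway genes, 4 of 41 tested were called higher in LPS EVs, namely Cgas, Jak2, Prdm1 and Tlr3, beside 13.9% of all genes tested, and 0 in the other EV groups; Prdm1 was lower in LPS cells than in Control cells.

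Between compartments, the members kept another order in EVs than in cells. Samhd1 took 25.1% of member counts in Control EVs, 30.7% in IL10 EVs and 35.1% in TGFB EVs, and Znfx1 came next in each. In LPS EVs Slfn2 led with 14.2%, followed by Samhd1 with 14.1%. Of 40 members tested between LPS EVs and LPS cells, 5 were higher in EVs and 12 lower, where 25.3% of all genes tested were called higher and 15.2% lower. Samhd1 had 596, 269 and 426 CPM in LPS EVs, and its log2 fold change against LPS cells was 1.98 (SE 0.32, edgeR adjusted p = 0.00199). Slfn5 (log2 fold change 1.97), Xaf1 (0.87), Nmi (0.82) and Cmpk2 were the others called higher; Cmpk2, with 320 counts in LPS EVs and 9 in LPS cells, was listed through LPS EVs, so its call says nothing of a difference. Every LPS EV library of Slfn5 lay below 26.7 CPM, the 90th percentile in LPS EVs of genes without a count in any cell library. The 12 that were lower included all 4 OAS family members, with Oas3 at a log2 fold change of -2.9 and Oasl1 at -2.34. Trim25 at -2.41, Adar at -1.86 and Lgals3bp at -3.28 were also among them. Of the 17 calls 9 held under every alternative, and those of Slfn5, Nmi, Xaf1, Oas2, Lgals9, Helz2 and Lgals3bp were lost without 1 library, at edgeR adjusted p-values of 0.0538 to 0.191. Levels are scaled within a compartment, so only the fit sets EVs against cells.

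Of 36 members tested between Control EVs and Control cells, 1 was higher and 3 were lower, where 1.23% of all genes tested were called higher and 9.43% lower. Slfn2 was the member that was higher (log2 fold change 1.04, SE 0.23, edgeR adjusted p = 0.0466). Parp14 and Rtp4 had no count in Control EVs and were at least 48.0-fold and at least 15.7-fold lower there, and Helz2 had a log2 fold change of -7.05. These 3 passed the count filter through Control cells alone, so their calls are no evidence of a difference. All 4 calls were lost when any 1 Control cell library was left out, at edgeR adjusted p-values of 0.134 to 0.259.

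The difference of the LPS effect between compartments was tested as an interaction. Of 40 members, 5 had a larger LPS effect in EVs than in cells and 1 a smaller one, where 14.1% of all genes tested were called larger and 2.04% smaller. Both shares of members are thus near those of all genes. The 5 were Parp14, Slfn5, Helz2, Rtp4 and Xaf1, and the 1 was Parp9. Parp9 had 7.78, 33.1 and 15.5 CPM in LPS EVs, against 51.7, 42.3 and 41.4 CPM in Control EVs, while it rose in LPS cells. The interaction of Parp9 was a log2 difference of -2.61 (SE 0.65, edgeR adjusted p = 0.0183), and its call was lost with RLE scaling (0.0503), with scaling by library totals (0.0745) and without any 1 Control cell library or LPS cell replicate 1 (0.0501 to 0.0522). That of Slfn5 was lost without LPS cell replicate 3 (edgeR adjusted p = 0.0547). With limma-voom, Parp14, Helz2, Rtp4 and Xaf1 lost theirs as well, at limma-voom adjusted p-values of 0.0954 to 0.161. No call of the interaction held under every alternative. For IL-10 and TGF-β, 0 members passed the interaction in edgeR, where 0.285% and 0.31% of all genes tested were called in either direction. At an unadjusted edgeR p under 0.05 there were 6 of 39 members for IL-10, beside 1440 of 11930 genes. For TGF-β there were 7 of 37 members, beside 1567 of 11954 genes. DESeq2 called 1 member larger and 2 smaller for IL-10, and 2 larger and 2 smaller for TGF-β. Its share of all genes is not given here.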

How the data were processed

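The authors deposited raw counts, 1 table per treatment and compartment (6 tables, 3 treated and 3 control libraries each). Library preparation combined SMART-Seq v4 cDNA synthesis with Nextera XT, per the labels' protocols. The submitters' processing notes name DESeq2; aligner, annotation and strand setting are not stated there. The 12 repeated control columns are identical across the tables of a compartment and were used once, with 0 columns left unmapped. The lowest total of a listed gene is 240 counts, a mean of 10 per library. Exon lengths came from GENCODE M21 (GRCm38), which may differ from the authors' annotation.

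Comparisons used edgeR 4.0.16 in R 4.3.3: counts scaled by TMM and filtered with filterByExpr, a quasi-likelihood fit with the robust option, p-values adjusted by Benjamini and Hochberg over all genes tested, a threshold of 0.05, and the SE taken as the log2 fold change over the root of F. Treatment against control used the 6 libraries concerned, direct contrasts the 12 cell libraries, and compartment differences the interaction of compartment and treatment in 12 libraries. Floors and bounds use 3 counts per library and cover counting error only. As alternatives, scaling was by RLE, the tool was DESeq2 1.42.0 or limma-voom (limma 3.58.1, quality weights), low genes were kept down to 1 count or dropped below a mean of at least 50 counts, the fit held all 12 or only 6 libraries, EVs were set against cells by library totals, each library was left out in turn, and the suffix of the column names was used as a block. The procedure was tested on simulated counts drawn from the means and spread of the control libraries, in cells and in EVs. These held no shift of all genes such as that of LPS EVs, and the outcome is not given here. Python 3.11.15 with numpy 2.4.6, pandas 2.3.3 and matplotlib 3.10.9 made levels and plots. Every member may be named; every-library values are given for the 8 largest rises and falls past the threshold in each treated group and for members past it in EVs, and up to 6 pathway genes by adjusted p are named beside Stat2, Irf9, Irf7 and Ifnar1; 1 gene of the rule is not reported here. The members and all lists were chosen with earlier results of these data known.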

Additional observations from a re-analysis of the deposited data

Results flagged for a closer look

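For 6 members the LPS effect differed between EVs and cells by the interaction test, 5 of 40 with a larger and 1 with a smaller effect in EVs, where 14.1% of all genes tested were called larger and 2.04% smaller. The shares of members are near those of all genes, so these counts are no result about the members as a set. Values are the log2 change in EVs minus that in cells. Parp14 had 10.03 (SE 1.33, edgeR adjusted p = 0.00169), Rtp4 10.49 (SE 1.19, edgeR adjusted p = 0.00146), Xaf1 6.15 (SE 1.45, edgeR adjusted p = 0.014), Helz2 6.1 (SE 0.83, edgeR adjusted p = 0.0015) and Slfn5 5.64 (SE 1.38, edgeR adjusted p = 0.0163). In Control EVs these 5 genes had few counts or none, so the sizes depend on the prior count and are no bounds. Parp9 had -2.61 (SE 0.65, edgeR adjusted p = 0.0183), higher in LPS cells than in Control cells and with lower values in all LPS EV libraries than in all Control EV libraries. With limma-voom and quality weights none of the 6 passed. No group of 3 was tested for outlying libraries.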

How the results depend on the processing

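Across alternatives LPS raised 37 to 38 members in cells (38), IL-10 raised 10 to 19 (14), and TGF-β lowered 20 to 24 (23). Of 7346 values of single members under alternatives, 7099 kept their side of the threshold, 129 lost their call and 117 gained one. Of the 7099, 285 had the other sign, with a call in neither fit. With a call in 1 of the fits, 1 value changed sign, that of Mx1 in LPS EVs against Control EVs, with a log2 fold change of -0.27 and -0.87 to 7.55 over fits without 1 library, the highest without Control EVs replicate 3. Of the counts that moved, limma-voom called 1 member lower in LPS cells (0 by edgeR). For members higher in LPS EVs than in Control EVs (6), DESeq2 gave 12, a mean of at least 50 counts 0 and all 12 libraries 0. Members lower in IL10 than in TGFB cells (2) came to 1 with the 6 libraries alone and to 3 with DESeq2, limma-voom and a mean of at least 50. For Control EVs against Control cells, members higher (1) came to 5 with DESeq2, 0 with no filter and 0 with a mean of at least 50, and members lower (3) to 5 with DESeq2 and 6 with limma-voom. For the LPS interaction, members larger in EVs (5) came to 0 with limma-voom and 7 with DESeq2, and members smaller (1) to 0 with RLE, limma-voom and library totals. DESeq2 gave 1 larger and 2 smaller for the IL-10 interaction, and 2 larger and 2 smaller for that of TGF-β, where edgeR gave 0. Leaving out 1 library at a time gave 0 to 1 lower in IL10 cells, 2 to 5 higher in TGFB cells, 0 to 11 higher in LPS EVs, 0 to 1 lower in LPS against IL10 cells, 1 to 3 lower in IL10 against TGFB cells, 0 to 3 higher and 0 to 8 lower in Control EVs against Control cells, 2 to 6 higher in LPS EVs against LPS cells, 0 to 5 smaller for the LPS interaction, and 0 to 1 in each direction for those of IL-10 and TGF-β. The cause of these changes was not tested, and shares of all genes under the alternatives are not given here. The ISRE core without its last base was in 43.3% of members with a window, against 8.87% of listed genes. The labels carry no replicate numbers, but the column names end in 1, 2 or 3. A fit with that suffix as a replicate block, chosen after seeing the data, gave 0 members higher in LPS EVs than in Control EVs (edgeR adjusted p = 0.281 for each of the 6), 0 higher and 0 lower in Control EVs against Control cells, and 2 higher in LPS EVs against LPS cells, and moved no other count of calls by over 1.5 times (38 higher in LPS cells). Correlations across genes of the deviations of same-suffix libraries ran from -0.19 to 0.32 and exceeded 0.1 in all 3 pairs of no comparison, so the suffix was not taken as a pairing. In EVs, floors of 3 counts per library were 0.167 to 0.994 CPM.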
